A study of Mus musculus with 12 samples.

Results

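Multiciliated cells carry many motile cilia on their surface. Here 10 genes that regulate their formation were followed in pituitary glands of newborn mice with different genotypes of Isl1, a LIM-homeodomain transcription factor. The genes were chosen by name from a table of 27129 genes. A row under the current symbol was found for 8 of the 10, and Mcidas and Gmnc were found through their NCBI gene IDs, under the older symbols Gm6320 and Gm606. The mutant group held 6 pituitary samples with a Cre transgene and the Isl1 genotype Isl1fx/-, with 1 floxed and 1 null allele. The control group held 6 pituitary samples with the same transgene and the genotype Isl1+/fx, with 1 floxed and 1 intact allele. Every animal therefore carried the Cre transgene and a floxed allele, and no group without Cre was analysed here. All glands were taken at postnatal day 0 after the posterior lobe had been removed, and each library came from an individual sample. The series title places the deletion in pituitary progenitors. Recombination is therefore directed to those cells and their descendants and not to every cell of the gland. By the genotypes, recombined cells of controls keep 1 intact allele, and the null allele of mutants is not limited to recombined cells.

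As background, an epithelial cell becomes multiciliated when the geminin-family proteins Gmnc and Mcidas, which bind E2F4 or E2F5, switch on a shared gene programme. In that programme centrioles are amplified, many of them on deuterosomes, structures in which the product of Ccdc67 (also called Deup1) is a core component. Foxj1 and RFX transcription factors then drive the genes of the ciliary axoneme. In the pituitary, ciliated cells are known to line the residual lumen of Rathke's pouch and Rathke's cleft cysts.

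Of the 10 regulators, 8 rose in mutant pituitaries and none fell. The fold changes ran from 19.7 for Mcidas to 1.71 for Myb, while those of the ciliary factors Rfx2 and Rfx3 were 0.952 and 1.07 and did not pass the test. Levels are given as CPM, a gene's fragments divided by the TMM-scaled size of its library, and differences as fold changes from edgeR's quasi-likelihood test with Benjamini-Hochberg adjustment over the 20445 genes tested. All 10 members were among the genes tested, and a gene was called at an adjusted p under 0.05. Among all genes tested, 4.79% were called higher and 2.62% lower in mutants, or 7.41% in either direction. A call with a fold of at least 2 was made for 7 of the 10 regulators, against 1.98% of all genes tested. Every mutant library lay above every control library for 7 of the 10 regulators, against 3.33% of all genes tested, and every mutant library lay below for none, against 1.31%. The median log2 fold change of the members was 1.24, beside -0.000967 for all genes tested. The members were chosen with earlier results of these data known, so these shares describe the set and do not test it. Because tissue and not single cells was sequenced, more cells of a type and more RNA per cell cannot be told apart.

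Mutant libraries held 45415453 to 61533576 fragments and control libraries 46204920 to 51535425. The first principal component took 32.8% of the variance and separated the groups. Xist, which is transcribed from the inactive X chromosome, was high in mutant 0, mutant 3 and control 4. Isl1 itself, examined as a check of the labels, averaged 58.5 ± 4.78 CPM in mutant and 35.2 ± 2.93 CPM in control libraries (SD, n = 6 each). The edgeR log2 fold change was 0.73 (SE 0.0637, adjusted p = 6.99e-06). The deposited value of a gene pools all of its exons, so this level cannot check whether a floxed part was lost, and the direction of every comparison here rests on the labels. The labels do not say more about the animals than that samples were individual, so the tests speak to the variation among these 12 samples.

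The upstream sequences of 5 members are shown because the RFX recognition letters that they hold bear on which regulators share sequence features. Each run is the 250 bases before a RefSeq start site (GRCm38.p6), written 5′ to 3′ on the gene's strand. Capitals mark the RFX core GTTGCC or its reverse complement, and in Ccno the longer RFX X-box that contains the core.
Mcidas (chr13:112993618-112993867, forward strand): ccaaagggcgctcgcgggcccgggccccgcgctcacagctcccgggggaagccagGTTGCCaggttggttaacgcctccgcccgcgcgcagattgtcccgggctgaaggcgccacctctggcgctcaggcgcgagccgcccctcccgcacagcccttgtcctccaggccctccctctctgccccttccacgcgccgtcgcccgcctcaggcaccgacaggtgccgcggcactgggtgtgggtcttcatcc
Ccno (chr13:112987552-112987801, forward strand): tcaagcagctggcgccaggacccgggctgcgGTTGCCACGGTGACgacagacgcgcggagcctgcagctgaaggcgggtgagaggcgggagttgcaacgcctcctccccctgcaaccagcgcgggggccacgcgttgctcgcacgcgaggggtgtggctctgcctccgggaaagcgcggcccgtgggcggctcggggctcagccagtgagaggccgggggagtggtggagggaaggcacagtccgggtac
Ccdc67 (chr9:15627847-15628096, reverse strand): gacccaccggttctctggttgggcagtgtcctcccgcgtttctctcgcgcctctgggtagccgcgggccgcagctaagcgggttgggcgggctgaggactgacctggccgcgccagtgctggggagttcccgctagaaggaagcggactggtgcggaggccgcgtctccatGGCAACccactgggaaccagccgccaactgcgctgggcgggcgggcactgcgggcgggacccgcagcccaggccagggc
Ccdc78 (chr17:25786330-25786579, forward strand): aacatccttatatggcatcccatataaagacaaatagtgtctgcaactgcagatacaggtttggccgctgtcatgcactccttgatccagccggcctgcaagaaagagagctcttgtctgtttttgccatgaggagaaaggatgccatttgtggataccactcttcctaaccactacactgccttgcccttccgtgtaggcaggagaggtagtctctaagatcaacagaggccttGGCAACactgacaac
Rfx2 (chr17:56831009-56831258, reverse strand): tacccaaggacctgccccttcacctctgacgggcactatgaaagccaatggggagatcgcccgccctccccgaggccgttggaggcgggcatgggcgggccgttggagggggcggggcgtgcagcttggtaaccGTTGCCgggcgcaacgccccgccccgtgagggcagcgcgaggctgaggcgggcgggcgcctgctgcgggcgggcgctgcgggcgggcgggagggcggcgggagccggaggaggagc

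Windows of 300 bases, from 250 before to 50 after a start site, were available for 9 of the members, and Foxj1 had no entry. Letters were searched on both strands. The RFX core was present in 7 of the 12 member windows, in 1 window each of Mcidas, Ccno, Ccdc67, Ccdc78, Rfx2, Rfx3 and Trp73, against 12.5% of all 32851 windows of the same length. It lay at -195 to -190 of the start site in Mcidas, at -79 to -74 in Ccdc67 and at -15 to -10 in Ccdc78. The X-box matched in Ccno alone among the members, at -219 to -206, against 1.53% of all windows. Rfx2, whose core lay at -116 to -111, and Rfx3, whose core lay at 31 to 36 after the start, held the same letters and did not pass the test between groups. A forkhead motif, GTAAACA, was found only in Myb among the members, at 33 to 39 after the start, against 3.65% of all windows. The MYB letters CAACNG were in 8 of the 12 member windows, against 35.0% of all windows, and overlapped the RFX core in Ccno, Rfx2 and Rfx3. The E2F letters TTTNNCGC were in none of the 12 windows, against 5.17% of all windows. A match describes the sequence and does not show that a factor binds there.

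The geminin-family regulators come first in the programme. Mcidas, the coactivator that commits a cell to the multiciliated fate, lies on chromosome 13 from 112993845 to 113000394 (mm10 coordinates of GENCODE vM21, as for the positions that follow). Its CPM ran from 1.52 to 5.77 with a median of 4.11 in mutants, against 0.0603 to 0.392 with a median of 0.185 in controls. The lowest mutant library thus stood above the highest control library. In fragments, all 6 mutant libraries together held 1207 and all 6 control libraries 56, so the level in controls rests on 3 to 19 fragments a library. The log2 fold change was 4.30 (SE 0.376, adjusted p = 6.99e-06), a fold of 19.7 with a 95% interval of 11 to 35.2. Among the fits to counts this was the largest fold change of the 10 members.

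Gmnc, which encodes the protein GemC1 and acts upstream of Mcidas, lies on chromosome 16 from 26913553 to 26991652. Its CPM ran from 1.08 to 3.02 with a median of 1.71 in mutants, against 0.413 to 0.902 with a median of 0.711 in controls. The groups did not overlap, although the lowest mutant library was close to the highest control library. Gmnc was 2.66-fold higher in mutants (95% interval 1.79 to 3.94, log2 fold change 1.41, SE 0.255, adjusted p = 0.00314). Without both libraries numbered 0 the log2 fold change was 1.14. Their binding partners and close relatives did not pass the test. Of 8 genes for geminin itself, E2F4, E2F5 and related cell cycle proteins, 0 were called in either direction, and their median log2 fold change was 0.02.

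Ccno, Ccdc67 and Ccdc78 serve centriole amplification, and all 3 rose. Ccno encodes a cyclin-like protein needed for deuterosome and centriole formation, and lies 3067 bases from Mcidas on chromosome 13 (112987802 to 112990777). It was measured at 3.36 to 8.74 CPM with a median of 6.57 in mutants, against 0.945 to 1.54 CPM with a median of 1.08 in controls. The lowest mutant library exceeded the highest control library. Ccno was 5.64-fold higher (95% interval 4.12 to 7.73, log2 fold change 2.50, SE 0.204, adjusted p = 5.00e-06). Dhx29, an RNA helicase gene that neighbours Ccno, averaged 27.3 ± 1.73 CPM in mutants and 32.5 ± 4.41 CPM in controls (SD, n = 6 each), with an adjusted p of 0.0792. Cdc20b, which lies 34716 bases beyond Mcidas, was not analysed here, because no row was found for it by symbol or NCBI gene ID.

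Ccdc67 (chromosome 9, 15559864 to 15627933) encodes the deuterosome scaffold protein. Its CPM ran from 14.2 to 22.6 with a median of 18.7 in mutants, against 7.80 to 11.1 with a median of 9.17 in controls. All mutant libraries lay above all control libraries, and the fold change was 2.04 (95% interval 1.70 to 2.44, log2 fold change 1.03, SE 0.117, adjusted p = 6.05e-05). Ccdc78, a coiled-coil protein of the deuterosome in frog multiciliated cells, lies on chromosome 17 from 25786580 to 25790513. It was measured at 4.25 to 9.44 CPM with a median of 5.53 in mutants, against 1.64 to 2.11 CPM with a median of 1.82 in controls. The groups did not overlap, and mutant 0 was the highest library. In FPKM mutant 0 was at 4.74 and the next library at 3.97, so its distance from the other mutants depends on the unit. Ccdc78 was 3.14-fold higher (95% interval 2.40 to 4.12, log2 fold change 1.65, SE 0.175, adjusted p = 3.22e-05). Ccdc78 shares 223 exonic bases with Fam173a on the opposite strand. Since the libraries keep no strand, reads of the pair cannot be told apart there. Fam173a averaged 29.1 ± 1.26 CPM in mutants and 28.3 ± 2.43 CPM in controls (SD, n = 6 each), with an adjusted p of 0.761. The part of Fam173a reads in the level of Ccdc78 was not tested.

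The general machinery of centriole assembly was examined beside these 3 genes. Of 18 measured genes of that list, 2 were called higher and 1 lower, with a median log2 fold change of 0.10. Cetn4, a centrin, averaged 7.59 ± 1.33 CPM in mutants and 4.98 ± 0.338 CPM in controls, with an adjusted p of 0.00195. Poc1a, a centriole protein, averaged 7.23 ± 0.752 CPM in mutants and 5.95 ± 0.364 CPM in controls, with an adjusted p of 0.0411. Odf2, a protein of centriole appendages, was lower, at 234 ± 5.17 CPM in mutants and 251 ± 6.56 CPM in controls, with an adjusted p of 0.0430 (SD, n = 6 each for these 3 genes). The counts of this list rested on single libraries: 1 gene was called higher when any one of controls 0, 1, 3 and 4 or mutants 0, 1, 2, 3 and 4 was left out. None was called lower when any library other than control 0 or mutant 2 was left out.

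**Figure D1:**
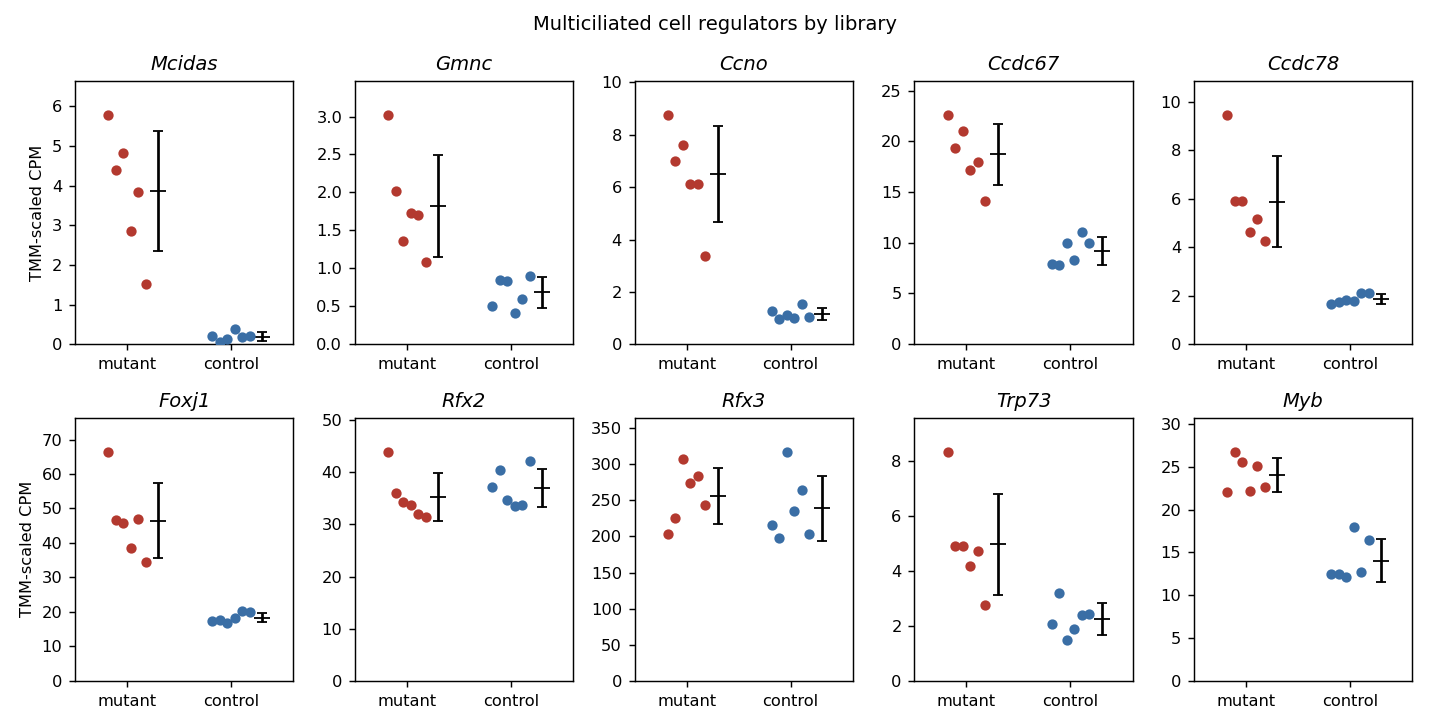
TMM-scaled CPM of each of the 10 regulators (y axis, from 0) in mutant and control libraries (x axis). Each point is 1 library, placed from left to right by library number, and the bar beside them is the mean with its SD (n = 6 each). Mutant points lie above all control points for Mcidas, Gmnc, Ccno, Ccdc67, Ccdc78, Foxj1 and Myb, overlap in part for Trp73, and mix with them for Rfx2 and Rfx3.

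The transcription factors that act on ciliary genes were not alike. Foxj1, the forkhead factor of motile cilia, lies on chromosome 11 from 116330704 to 116335399. It was measured at 34.5 to 66.4 CPM with a median of 46.1 in mutants, against 16.8 to 20.2 CPM with a median of 17.9 in controls. The lowest mutant library was well above the highest control library. Foxj1 was 2.53-fold higher (95% interval 2.08 to 3.07, log2 fold change 1.34, SE 0.126, adjusted p = 1.32e-05). Its neighbour Rnf157, a ubiquitin ligase gene, averaged 24.3 ± 1.05 CPM in mutants and 26.6 ± 2.61 CPM in controls (SD, n = 6 each), with an adjusted p of 0.230.

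Rfx2 (chromosome 17, 56775897 to 56831013), a factor that cooperates with Foxj1 on ciliary genes, ran from 31.4 to 43.9 CPM with a median of 34.0 in mutants, against 33.6 to 42.2 CPM with a median of 35.9 in controls. The ranges covered each other. The fold was 0.952 with a 95% interval of 0.837 to 1.08 (log2 fold change -0.07, SE 0.0836, adjusted p = 0.691). Rfx3 (chromosome 19, 27761721 to 28011166), which also acts on ciliary genes, ran from 203 to 308 CPM with a median of 259 in mutants, against 197 to 317 CPM with a median of 226 in controls. These ranges overlapped almost fully. The fold was 1.07 with a 95% interval of 0.890 to 1.29 (log2 fold change 0.10, SE 0.122, adjusted p = 0.694). For both genes the interval left out a change as large as that of any of the 8 regulators that rose. Of 8 other genes of the RFX group, 0 were called in either direction, and the median log2 fold change was 0.01.

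Trp73 and Myb are transcription factors with wider roles that are also needed in multiciliated cells. Trp73, the p73 member of the p53 family, lies on chromosome 4 from 154056253 to 154140208. Its CPM ran from 2.75 to 8.33 with a median of 4.82 in mutants, against 1.51 to 3.22 with a median of 2.25 in controls. The groups overlapped, because mutant 5 was below control 1. The antisense gene Trp73os shares 280 exonic bases with Trp73, and since the libraries keep no strand, reads of the pair cannot be told apart there. Trp73 was 2.20-fold higher (95% interval 1.54 to 3.15, log2 fold change 1.14, SE 0.233, adjusted p = 0.00754). The authors' deposited transcript table gave the transcript that starts at the upstream site (154140208) 0.660 FPKM in mutants and 0.369 FPKM in controls and marked it as changed (q = 0.0429). In the same authors' deposited table, the more abundant of the transcripts from the internal start (154097173) had 0.331 FPKM in mutants and 0.0528 FPKM in controls and was not marked (q = 0.652).

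Myb (chromosome 10, 21124935 to 21160984), a proto-oncogene product of cycling progenitors that is also expressed early in multiciliated differentiation, ran from 22.1 to 26.7 CPM with a median of 23.9 in mutants, against 12.2 to 18 CPM with a median of 12.6 in controls. All mutant libraries lay above all control libraries. Myb was 1.71-fold higher (95% interval 1.46 to 2.0, log2 fold change 0.78, SE 0.101, adjusted p = 0.000216). The antisense gene Gm26577 shares 559 exonic bases with Myb, and since the libraries keep no strand, reads of the pair cannot be told apart there. Gm26577 averaged 11.8 ± 1.37 CPM in mutants and 7.71 ± 1.36 CPM in controls (SD, n = 6 each). Its log2 fold change was 0.62, with an adjusted p of 0.00400. Of 15 proliferation genes such as Mki67 and Top2a, 0 were called in either direction, and their summed level was 680 to 791 CPM in mutants and 730 to 848 CPM in controls.

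An exact two-sided permutation test of each member's mean log2(CPM + 0.1) over all 924 assignments gave p = 0.00216, the smallest this design allows, for Mcidas, Gmnc, Foxj1, Ccno, Ccdc67, Ccdc78 and Myb. The same exact test gave p = 0.00433 for Trp73, 0.422 for Rfx2 and 0.444 for Rfx3. The authors' deposited comparison table, which pools each group, marked the same 8 members as higher and none as lower. Of the 18309 genes tested in it, 2.95% were marked higher and 0.661% lower. Its log2 fold changes were 4.31 for Mcidas, 2.50 for Ccno, 1.61 for Ccdc78, 1.48 for Gmnc, 1.32 for Foxj1, 1.13 for Trp73, 1.03 for Ccdc67 and 0.78 for Myb. That table rests on the same libraries and is not separate evidence. On the log2(FPKM + 1) scale of limma, which understates changes of low genes, the log2 fold changes were smaller, at 1.29 for Mcidas, 1.49 for Ccno, 1.08 for Ccdc78, 0.33 for Gmnc, 0.45 for Trp73 and 0.67 for Myb, so the order of the members by size depends on the scale.

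**Figure D2:**
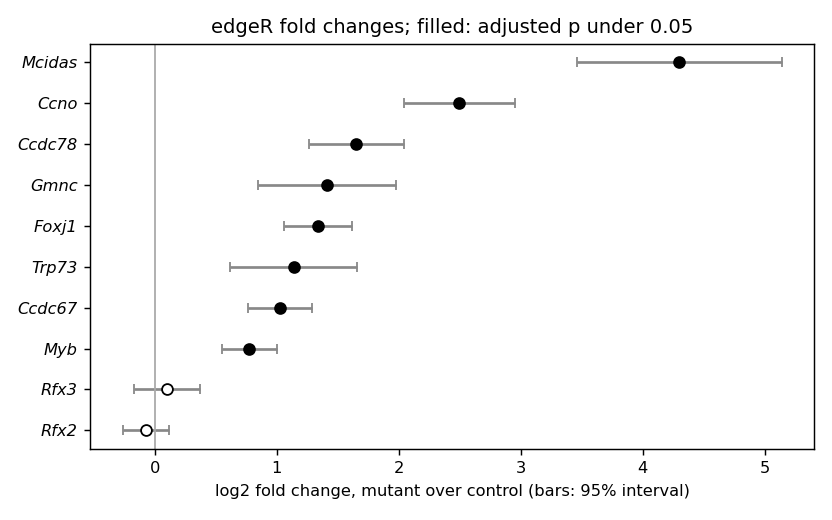
Log2 fold change of each regulator, mutant over control (x axis), with its 95% interval from edgeR as a bar, ordered by size (y axis). Filled points passed an adjusted p under 0.05. Mcidas is at 4.30 and Ccno at 2.50, the other 6 filled points lie between 0.78 and 1.65, and the open points of Rfx2 and Rfx3 lie at -0.07 and 0.10.

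Levels of different genes were compared per length, in FPKM (fragments scaled to transcript length and library size). In mutants the order of mean levels was Rfx3 (28.6 FPKM), Foxj1 (18.4), Rfx2 (10.8), Myb (7.14), Ccdc67 (6.31), Ccno (3.79), Ccdc78 (3.68), Mcidas (1.72), Trp73 (0.992) and Gmnc (0.485). In controls Rfx3 also came first at 26.5 FPKM, followed by Rfx2 (11.4), Foxj1 (7.35), Myb (4.15), Ccdc67 (3.10), Ccdc78 (1.20), Ccno (0.672), Trp73 (0.452), Gmnc (0.174) and Mcidas (0.0866). Foxj1 thus stood above Rfx2 in mutants and below it in controls, without overlap of the libraries' ranges in either group. Mcidas was the lowest of the 10 in controls and eighth in mutants. In mutants, neighbours from Myb to Ccdc78 overlapped in their ranges, as did those from Mcidas to Gmnc. In controls the overlapping neighbours were Myb with Ccdc67, those from Ccdc78 to Trp73, and Gmnc with Mcidas. The ratio of FPKM to CPM was set apart in mutant 0 and control 0, upward or downward depending on the gene. For Ccdc78 it was 0.503 in mutant 0 and 0.505 in control 0, against 0.660 to 0.677 in the other libraries. For Gmnc it was 0.311 in mutant 0 and 0.297 in control 0, against 0.246 to 0.253 in the others. Values of these 2 libraries therefore stand differently among their group in FPKM and in CPM.

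Dividing each gene by Foxj1 in the same library showed that the 8 genes did not rise by the same factor. The ratio was compared as log2(CPM + 0.1) minus that of Foxj1, with the exact two-sided permutation test and adjustment over the 9 ratios. Relative to Foxj1, Mcidas was higher by 2.42 and Ccno by 1.05 on the log2 scale in mutants. Both had groups that did not overlap (exact permutation p adjusted to 0.00487). The added 0.1 makes the value for Mcidas smaller, since Mcidas averaged 0.194 CPM in controls. Ccdc78 was higher by 0.25 relative to Foxj1 (adjusted exact permutation p = 0.00649), with overlapping groups. Gmnc differed by -0.04 (adjusted exact permutation p = 0.838) and Trp73 by -0.24 (0.202), neither of which passed. Ccdc67 differed by -0.29 (adjusted exact permutation p = 0.0195) and Myb differed by -0.52 (0.00649). Rfx3 and Rfx2, whose own levels did not pass the test, differed by -1.20 and -1.38 relative to Foxj1, without overlap.

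**Figure D3:**
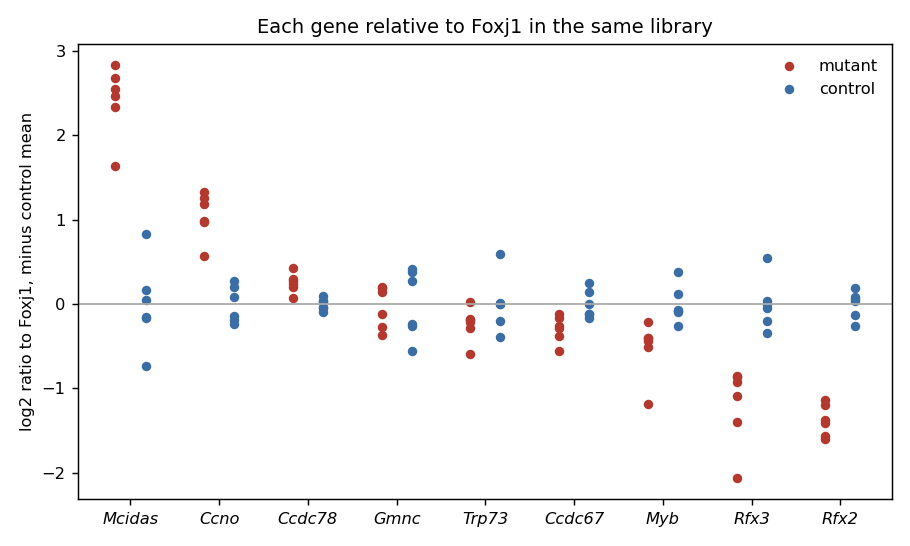
Log2 ratio of each regulator to Foxj1 in the same library, from log2(CPM + 0.1), with the mean of the control libraries set to 0 (y axis), for the 9 other regulators (x axis). Each point is 1 library, with mutants to the left of controls. Mcidas and Ccno lie above the controls by 2.42 and 1.05 on average, and Rfx3 and Rfx2 below them.

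The mutant libraries also differed among themselves in a shared order. Of the 8 regulators that rose, 7 had their highest CPM among mutants in mutant 0 and their lowest in mutant 5. In FPKM, 6 of the 8 were highest in mutant 0 and 7 lowest in mutant 5, with Ccdc67 highest in mutant 2. Myb did not share this order and was highest in mutant 1 in both units. Its lowest CPM was in mutant 0 (22.106), with mutant 3 close to it (22.164). In FPKM its lowest library was mutant 3. The coefficient of variation over mutants was 15.9% for Ccdc67, 23.6% for Foxj1, 28.1% for Ccno, 31.7% for Ccdc78, 37.0% for Trp73, 36.9% for Gmnc and 39.0% for Mcidas, and 8.28% for Myb. Over controls it was 14.7% for Ccdc67, 7.70% for Foxj1, 18.8% for Ccno, 10.5% for Ccdc78, 26.0% for Trp73, 29.8% for Gmnc and 57.5% for Mcidas, and 17.9% for Myb. Control values of Mcidas rest on few fragments, as given above.

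**Figure D4:**
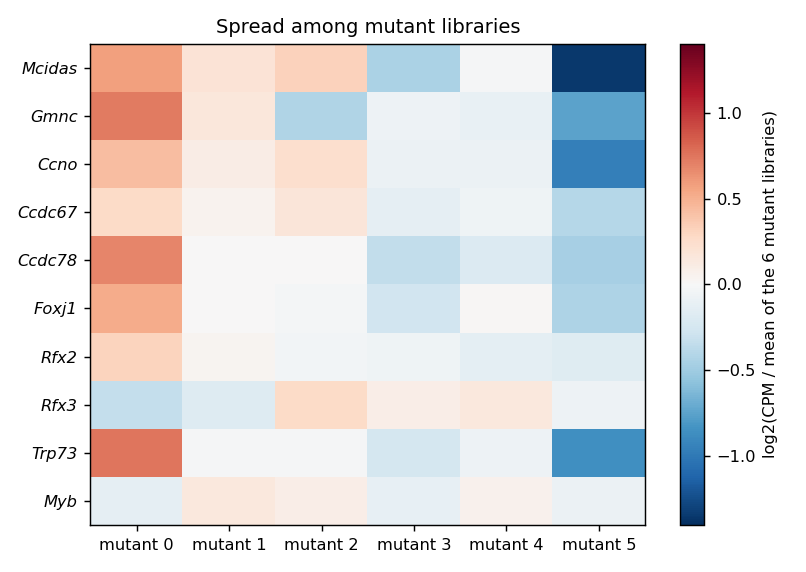
Log2 of the CPM of each regulator (rows) in each mutant library (columns) over the mean of the 6 mutant libraries, as a colour from blue (below the mean) through white to red (above it). Mutant 0 is red and mutant 5 blue for 7 of the 8 regulators that rose, and Myb varies little.

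Within the 6 mutant libraries, correlations with Foxj1 were computed on log2(CPM + 0.1) with exact permutation over all 720 pairings, as part of 20 relations in both groups. The summed CPM of 32 motile axoneme genes followed Foxj1 with Pearson r = 0.997 (exact permutation p = 0.00278, adjusted 0.0463) and Spearman rho = 0.943 (exact permutation p = 0.0167, adjusted 0.294). Without mutants 0 and 5, the libraries farthest from the median of Foxj1, r was 0.981. For Trp73, r was 0.973 and rho 0.829 (exact permutation p = 0.00694 and 0.0583, adjusted 0.0463 and 0.294), and r was 0.947 without those libraries. For Ccdc78, r was 0.968 and rho 0.829, with the same p-values, and r was 0.776 without those libraries. Mcidas had r = 0.868 and rho = 0.771 (exact permutation p = 0.0375 and 0.103, adjusted 0.0938 and 0.294), and r was 0.846 without mutants 0 and 5. In FPKM, an alternative chosen after seeing the data, r was 0.977 for the axoneme sum, 0.962 for Trp73, 0.949 for Ccdc78 and 0.920 for Mcidas, each with an adjusted exact permutation p of 0.0417.

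In CPM, neither Mcidas nor the remaining members passed the adjustment in mutants. For Gmnc, r was 0.880 over the 6 libraries (adjusted exact permutation p = 0.0938) and -0.00883 without mutants 0 and 5, so the relation rests on those libraries. The same holds for Rfx2, with 0.879 and 0.0420. Ccdc67 had r = 0.881, and 0.586 without those libraries, and Ccno had r = 0.825, and 0.446 without them. Myb had r = 0.0202, and 0.927 without those libraries, so its low value rests on them. Rfx3 had r = -0.488, and -0.111 without them. Neither Myb nor Rfx3 passed over the 6 libraries. In controls, whose range of Foxj1 was narrow, no relation passed the adjustment, the highest being Ccdc78 with r = 0.879 (adjusted exact permutation p = 0.0938) and -0.0319 without controls 4 and 5. No Spearman value passed in either group.

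**Figure D5:**
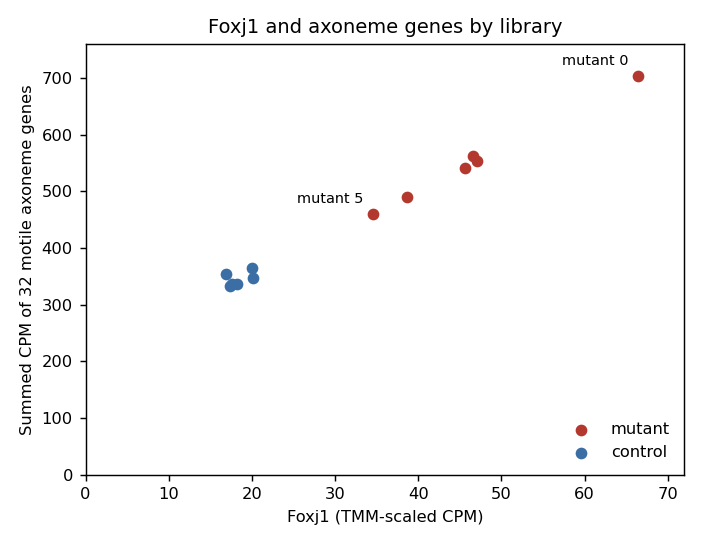
Foxj1 (x axis, TMM-scaled CPM) against the summed CPM of 32 motile axoneme genes (y axis), each point 1 library. Mutant libraries run from 461 to 704 CPM on the y axis with mutant 5 lowest and mutant 0 highest, and control libraries lie together at 333 to 365 CPM.

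The genes whose deviations from the group means were most like those of Foxj1, over 12 libraries and 13450 genes with a mean of at least 1 CPM, were Lrrc48 (r = 0.977), Ccdc78 (0.958), Odf3b (0.949), Ankmy1 (0.946) and Tmem212 (0.945). Of these, Lrrc48, Odf3b and Tmem212 rose, with log2 fold changes of 0.96, 2.44 and 4.93 (edgeR adjusted p = 5.02e-05, 8.09e-06 and 1.81e-06). Ankmy1 averaged 2.33 ± 0.605 CPM in mutants and 1.56 ± 0.266 CPM in controls (SD, n = 6 each), with an adjusted p of 0.0536. These correlations describe likeness in these libraries.

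Downstream of the regulators, 27 of the 32 motile axoneme genes were called higher in mutants and 0 lower, with a median log2 fold change of 0.64. Their summed level was 461 to 704 CPM in mutants and 333 to 365 CPM in controls. Ak7, an adenylate kinase of motile cilia, averaged 9.10 ± 4.31 CPM in mutants and 0.644 ± 0.122 CPM in controls, a log2 fold change of 3.81. Lrrc23, a radial spoke protein, averaged 24.8 ± 7.67 CPM in mutants and 4.09 ± 0.559 CPM in controls, a log2 fold change of 2.60. Dnah5, an outer arm dynein heavy chain, averaged 28.2 ± 12.2 CPM in mutants and 4.61 ± 0.371 CPM in controls, a log2 fold change of 2.61 (SD, n = 6 each for these genes). The edgeR adjusted p was 2.49e-06 for Ak7 and Lrrc23 and 6.29e-06 for Dnah5.

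Relatives of the regulators rose in part. Of 11 genes of the MYB, p53, forkhead and cyclin families, 3 were called higher and 0 lower. Trp63, the p53 relative of basal epithelial cells, averaged 8.55 ± 2.51 CPM in mutants and 2.06 ± 0.630 CPM in controls (adjusted p = 4.00e-05). Foxn4, a forkhead factor that acts with Mcidas and Foxj1 in frog multiciliated cells, averaged 2.68 ± 1.10 CPM in mutants and 0.278 ± 0.142 CPM in controls (adjusted p = 4.09e-05). Ccna1, a cyclin, averaged 11.9 ± 1.39 CPM in mutants and 5.57 ± 1.10 CPM in controls (adjusted p = 7.67e-05; SD, n = 6 each for these 3 genes). Notch signalling restrains multiciliated differentiation, and of 15 genes of that pathway 0 were called, with a median log2 fold change of 0.05. The lowest adjusted p among them was that of Hes1, a Notch target, at 0.0549, with 44.2 ± 2.04 CPM in mutants and 39.9 ± 1.86 CPM in controls (SD, n = 6 each). Hes1 was called higher with DESeq2 (adjusted p = 0.0169), with the FPKM filter (0.0495), with scaling by library total (0.0363) and without mutant 5 (0.0323).

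Markers of other cell types were examined beside the regulators. Of 12 tested markers of airway, oral and nasal epithelium, 10 were called higher and 0 lower, and the summed level of all 13 was 76.8 to 177 CPM in mutants and 16.7 to 19.9 CPM in controls. Among them, Muc5b, a secreted mucin, averaged 24.9 ± 11.8 CPM in mutants and 0.530 ± 0.155 CPM in controls, and Reg3g, a secreted lectin, averaged 14.1 ± 7.26 CPM in mutants and 0.188 ± 0.115 CPM in controls (SD, n = 6 each). Mutant 0, highest in CPM for 7 of the regulators, was also highest for this sum, whereas mutant 3 and not mutant 5 was lowest. No marker of the list was at 0 in all mutant libraries, and Scgb1a1, a club cell secretoglobin, was at most 0.0161 CPM in a mutant library and could not be tested. The part of such cells in the result was not tested. Of 7 choroid plexus markers, 2 were called higher, with sums of 106 to 125 CPM in mutants and 82.1 to 93.6 CPM in controls. These were Clic6, at 64.0 CPM in mutants and 34.4 CPM in controls on average, and Kcnj13, at 1.39 and 0.649 CPM. The median log2 fold change of that list was -0.03, so the difference in its sums rests largely on Clic6. Of 8 leukocyte markers 0 were called, with sums of 71.5 to 91.9 CPM in mutants and 74.7 to 99.7 CPM in controls. Of 7 tested erythroid genes 0 were called, with sums of 175 to 404 CPM in mutants and 171 to 248 CPM in controls. Of 4 tested posterior lobe and hypothalamus markers 0 were called, with sums of 171 to 221 CPM in mutants and 169 to 229 CPM in controls. Most of these sums was Col25a1, at 175 CPM in mutants and 186 CPM in controls on average, so they say little about the other markers. Of 9 anterior pituitary markers, which identify the gland, 2 were called lower (Cga and Tshb, hormone subunit genes). The sums of all 9 were 45532 to 52491 CPM in mutants and 45379 to 62610 CPM in controls. Most of these sums was Gh, at 41471 CPM in mutants and 46460 CPM in controls on average. They therefore say little about the other markers of that list.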

How the data were processed

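The 12 pituitary samples of newborn mice, 6 of each genotype in the labels, were sequenced without the posterior lobe. The driver of the Cre transgene is not reported here. Per the labels' protocols, total RNA came from an Ambion kit for small samples, and TruSeq RNA v2 libraries, which do not mark strand, were prepared from it. The submitters' processing notes list the build mm10 and the tools Cuffdiff 2.1.1, Cufflinks, TopHat2 2.0.9, Bowtie2 2.1.0 and FastQC 0.10.1.

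Per the file headers, the authors' table of 27129 genes holds FPKM and estimated counts of fragments by library. Of the non-zero counts in a library, 90.0% to 90.4% were exactly whole, and the rest were rounded here. Another 12 scaled columns were left out. The authors' deposited comparison tables hold FPKM of each pooled group, log2 fold changes and q-values for genes and transcripts, with marks at q up to 0.05 and 1.5-fold or more. Their enrichment table was not used here.

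Genes with at least 60 fragments over the 12 libraries were tested, a limit that does not use the groups, which left 20445. An FPKM filter used earlier (at least 1 in at least 6 libraries) would have left Mcidas, Gmnc and Trp73 untested and became an alternative. The quasi-likelihood test of edgeR 4.0.16 under R 4.3.3 was run with TMM factors and no covariate, and calls were made at Benjamini-Hochberg adjusted p under 0.05. Standard errors come from the log2 fold change and its F statistic, and 95% intervals from the t distribution. The tests were checked on simulated counts. No replicate pair within a group looked like a duplicate, as a chi-square divided by its degrees of freedom was 14.6 or more for all 30 such pairs. Alternatives were DESeq2 1.42.0, limma 3.58.1 on log2(FPKM + 1) and log2(FPKM + 0.1), other scalings and filters, a Y-linked covariate, a fold minimum of 1.5, a replicate block, and leaving out libraries. FPKM in place of CPM was tried after seeing the data.

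Named were all members, Isl1, neighbouring or overlapping genes of some members, and the 5 genes most like Foxj1. Up to 3 called genes in each direction were also named per list, by adjusted p. Gm13116, Gm20407 and 4930540M03Rik, which share the intervals of Trp73, Rfx3 and Ccdc67, are not described. Gh, Hes1, Mki67, Top2a, Scgb1a1 and Col25a1 are named outside these rules, and Gh, Hes1, Scgb1a1 and Col25a1 after their values were seen. Members and lists were chosen with earlier results of these data known. Promoter sequences come from RefSeq (GRCm38.p6) and positions from GENCODE vM21. Figures were drawn with matplotlib 3.10.9.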

Additional observations from a re-analysis of the deposited data

Results flagged for a closer look

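Mutant 0 stood apart from the other mutant libraries for 2 of the 10 regulators when measured in CPM. Rfx2 had 43.9 CPM in mutant 0, with 31.4 to 36.1 CPM in the other mutant libraries, so that its gap to the nearest of them was 0.626 of the whole range of mutants. Ccdc78 had 9.44 CPM in mutant 0, with 4.25 to 5.90 CPM in the other mutant libraries, a gap of 0.682 of the range. Both gaps exceed the critical value of Dixon's test for 6 samples at the 95% level. In FPKM the gaps of mutant 0 were 0.328 for Rfx2 and 0.407 for Ccdc78, and neither exceeded it. Of 20 groups examined (10 genes in mutants and in controls) these 2 exceeded it, and chance alone exceeds it in about 1 of 20. Both values are the highest of their group and come from 1 library, which is also 1 of the 3 libraries with high Xist. Ccdc78 stayed called without mutant 0, and Rfx2 was not called with or without it.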

How the results depend on the processing

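The fold changes of the 10 regulators kept their direction and their side of the threshold in all 247 alternative values, 24 or 25 for each gene, but not their size. Under limma on log2(FPKM + 1) the log2 fold change was 1.29 for Mcidas, 0.33 for Gmnc, 0.45 for Trp73, 1.49 for Ccno and 1.08 for Ccdc78. The highest adjusted p was 0.0398 for Trp73 (without the 3 libraries with high Xist) and 0.0360 for Gmnc (limma on log2(FPKM + 1)), and at most 0.00304 for the other 6 that rose. With the FPKM filter 5 members were called higher, because Mcidas, Gmnc and Trp73 were not tested. Leaving out 1 library at a time, 8 members stayed called higher.

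Counts over all genes depended more on the processing. Against 979 higher and 535 lower, without the high-Xist libraries 630 were higher and 220 lower, with a fold of at least 1.5 there were 614 and 92, with DESeq2 1238 and 1013, and with scaling by library total 1103 and 355. Limma called 274 lower at log2(FPKM + 0.1) and 282 at log2(FPKM + 1). Leaving out 1 library gave 796 to 969 higher and 284 to 629 lower; the lower count was 284 without control 1, 333 without mutant 1, 326 without mutant 2 and 327 without mutant 4. The cause was not tested. Leaving out 1 library moved r with Foxj1 across 0. In mutants it ran from -0.24385 to 0.87748 for Myb and from -0.71678 to 0.25367 for Rfx3. In controls it ran from -0.34305 to 0.31152 for Gmnc, -0.26386 to 0.66889 for Ccno, -0.42631 to 0.57898 for Rfx2 and -0.55493 to 0.43986 for Rfx3. In FPKM, chosen after seeing the data, r of Rfx3 in mutants was 0.0025443. Of the counts for gene lists, 310 stayed within 1.5 times the main count, 35 were lower and 5 higher, of which 4 were the Notch list with Hes1 called higher; with a fold of at least 1.5 the axoneme list had 17 called higher.

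Same-numbered libraries correlated between -0.123 and 0.318 in their deviations. Mutants 0 and 2 correlated best with the control of their own number, and the other mutants did not. The ratio of FPKM to CPM was set apart in both mutant 0 and control 0. These values cannot show whether replicate numbers pair the samples. With the replicate number as a block, 1010 genes were higher, 512 lower and 8 members higher. The control level of Mcidas, 3 to 19 fragments a library, limits the precision of its fold.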
